A study of Mus musculus with 4 samples.

Results

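Glucocorticoid target genes were followed as a set of 10 members: Fkbp5, Zbtb16, Tsc22d3, Per1, Klf9, Pik3ip1, Ddit4, Errfi1, Cebpd and Irs2, out of 32285 features in each matrix. The members were chosen from measured values of these same libraries, as genes whose UMI counts (counts of distinct RNA molecules) stood higher in the libraries labelled shYap. Levels and ratios between the libraries labelled shYap and WT are therefore a description and carry no test. The question put to them was whether that difference lies in all cell types or in phagocytes alone. The cells came from liver metastatic tumours of MC38, a mouse colon carcinoma line, in C57BL/6J mice, and were enriched for CD45, the leukocyte surface phosphatase encoded by Ptprc, on magnetic beads. Droplet-based single-cell sequencing from the 3′ end of the RNA (10x Genomics) gave 4 libraries, so each diet and tumour line met in 1 library only. LFD_WT and HFD_WT are tumours of unmodified MC38 in mice on a low-fat or a high-fat diet. LFD_shYap and HFD_shYap are tumours of a derivative of MC38 with a knockdown of Yap, the transcriptional co-activator encoded by Yap1, on the same diets. The labels name the knockdown for the tumour line and no modified allele for the mice. The labels of LFD_shYap disagree about its diet, low-fat by the title and high-fat by the treatment entry, and the title was followed. How many mice gave each library, whether the knockdown line is a single clone and how old the mice were are not given in the sources used here.

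Glucocorticoids (corticosterone in mice) cross the cell membrane and bind the glucocorticoid receptor, encoded by Nr3c1, which then enters the nucleus and binds DNA as a dimer at palindromic response elements, many of them far from the gene they control. The members are among the genes that the bound receptor is known to induce in many cell types, immune cells included, where glucocorticoids damp inflammation. Several are also known to answer to other inputs: Ddit4 to hypoxia and energy stress, Per1 to the circadian clock and cyclic AMP, Irs2 and Pik3ip1 to FOXO factors, and Cebpd to acute inflammation. By role, Fkbp5 is a co-chaperone that lowers the receptor's affinity for hormone and closes a feedback loop. Zbtb16, Tsc22d3, Per1, Klf9 and Cebpd encode regulators of transcription. Pik3ip1, Ddit4 and Errfi1 encode brakes on growth signalling, and Irs2 encodes an adaptor of the insulin receptor.

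Promoter sequences are shown for Fkbp5, Tsc22d3, Klf9 and Per1, the 4 members that were higher in the libraries labelled shYap in at least 6 of 8 cell types on each diet. They are the 250 bases before the annotated start, written 5′ to 3′ on the strand of the gene, from the RefSeq table for GRCm38.p6, in which 8 of the 10 members matched with 12 promoters. Fkbp5 (ENSMUSG00000024222) lies on the minus strand at chr17:28399094-28517527 in the GENCODE annotation of GRCm38, and its promoter, chr17:28486150-28486399, falls inside that gene. Tsc22d3 (ENSMUSG00000031431) lies on the minus strand at chrX:140539528-140600659, and the promoter shown of its 3, chrX:140600523-140600772, spans the annotated 5′ start of the gene. Klf9 (ENSMUSG00000033863) lies on the plus strand at chr19:23141226-23168134, with its promoter, chr19:23140976-23141225, directly before it. Per1 (ENSMUSG00000020893) lies on the plus strand at chr11:69095217-69109960, and the promoter shown of its 2, chr11:69098699-69098948, is inside that gene. Capitals mark the E-box CACGTG in Fkbp5 (first base at position -169 from the start) and Per1 (-166), the letters TGACGT of a cyclic AMP response element in Klf9 (-46), and TGTTTAC, a FOXO motif, on the other strand of Klf9 (-100). In Tsc22d3 they mark AGAACA, a single arm of the glucocorticoid response element, on the other strand (-185).
Fkbp5 promoter: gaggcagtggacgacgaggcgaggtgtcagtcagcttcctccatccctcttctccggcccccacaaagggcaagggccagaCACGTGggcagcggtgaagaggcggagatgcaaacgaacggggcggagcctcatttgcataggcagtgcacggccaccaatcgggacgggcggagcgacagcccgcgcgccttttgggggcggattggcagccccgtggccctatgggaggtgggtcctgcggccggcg
Tsc22d3 promoter: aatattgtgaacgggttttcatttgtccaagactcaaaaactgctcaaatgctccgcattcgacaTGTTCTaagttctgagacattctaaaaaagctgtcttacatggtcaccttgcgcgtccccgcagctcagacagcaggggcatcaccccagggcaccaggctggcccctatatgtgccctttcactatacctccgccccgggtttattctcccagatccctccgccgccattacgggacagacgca
Klf9 promoter: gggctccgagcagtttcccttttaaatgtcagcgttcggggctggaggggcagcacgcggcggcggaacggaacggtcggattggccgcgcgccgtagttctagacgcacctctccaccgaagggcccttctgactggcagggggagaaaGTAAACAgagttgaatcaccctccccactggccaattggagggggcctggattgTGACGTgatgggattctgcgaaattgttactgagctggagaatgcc
Per1 promoter: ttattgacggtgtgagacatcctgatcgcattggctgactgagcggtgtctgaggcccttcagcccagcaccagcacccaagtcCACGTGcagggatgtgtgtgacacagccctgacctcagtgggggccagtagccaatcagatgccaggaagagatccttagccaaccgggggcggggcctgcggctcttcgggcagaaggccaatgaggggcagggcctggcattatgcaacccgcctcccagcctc
Both strands of all 12 member promoters were searched; AGAACA is contained in the whole element, and Errfi1 holds TGACGT on both strands in overlapping places. The whole element, AGAACA, any 3 bases, then TGTTCT, was in 0 of 12 member promoters and in 0.00913% of the 32851 promoters of the same length in the table. Its core, GNACA, any 3 bases, then TGTNC, was in 0 of 12 and in 0.387%. AGAACA was in 1 of 12 against 16.1%, CACGTG in 3 of 12 (Fkbp5, Per1, Irs2) against 6.02%, TGACGT in 3 of 12 (Per1, Klf9, Errfi1) against 6.47%, and TGTTTAC in 1 of 12 (Klf9) against 3.17%. A match describes these letters only, and the window says nothing of elements that lie elsewhere.

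After filtering, 7281 to 11084 cells per library were kept, with a median of 6754 to 9946 UMIs per cell. Cells formed 27 clusters, from which 8 marker-named cell types held at least 20 cells in every library, and 2 large unnamed clusters were followed beside them. The first unnamed cluster was nearly free of Ptprc (7.79 to 13.9 CPM, UMIs of a gene for every 1000000 UMIs of the cell type, against 299.7 to 348.7 in phagocytes) and was led by Lgals7, Col6a1 and Tm4sf1. The second had few UMIs per cell and C1q genes at the phagocyte level. The knocked-down gene went against the label of HFD_shYap. Yap1 in the Ptprc-low cluster was at 20.2 CPM in LFD_WT and 17.9 in LFD_shYap (ratio 0.889, 95% counting interval 0.765 to 1.03) and at 16.8 in HFD_WT and 22.0 in HFD_shYap (ratio 1.31, 1.05 to 1.62). Every direction below is therefore between libraries by label. HFD_shYap held cells of both sexes, 2012 cells with Xist UMIs alone and 2974 with Y-linked UMIs alone, while each of the other libraries had at most 7 Xist UMIs. Pairs of libraries shared 14 to 38 barcodes. Intervals throughout cover counting error only, not the spread between tumours or mice.

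In mononuclear phagocytes (macrophages and monocytes, 4445 to 6199 cells in the high-fat libraries and 5599 to 6437 in the low-fat ones) the summed members stood at 387.2 CPM in LFD_WT and 761.9 in LFD_shYap, and at 379.1 in HFD_WT and 599.8 in HFD_shYap. Set against the WT library on its diet, the library labelled shYap was at a ratio of 1.97 (1.94 to 1.998) in the low-fat pair and 1.58 (1.56 to 1.61) in the high-fat pair. By the smaller of its 2 ratios, Zbtb16 came first, then the feedback gene Fkbp5, Klf9 and Tsc22d3, while Pik3ip1 and Ddit4 had wide ratios in the low-fat pair only. At least 1.5-fold higher in both pairs were 4 of 10 members (Fkbp5, Zbtb16, Tsc22d3, Klf9), and 0 of 10 were as much lower, where 1.11% of 14090 genes were higher and 0.916% lower. With TMM factors in place of the total, Tsc22d3 was not past 1.5-fold in both pairs, which left 3 members, beside 0.93% of all genes. The median log2 ratio of the members was 1.24 in the low-fat and 0.55 in the high-fat pair, and that of all genes -0.09 and 0.12. Since the members were chosen on this difference, nothing is read from these counts. The summed RNA of 8 hepatocyte markers in the phagocytes also stood higher in the libraries labelled shYap, at 852.5 to 1125 CPM against 804.5 to 851.2, with 0 of the 8 at 0, and its part in the result was not tested. A count is relative to the other RNA of the cells, so more RNA of the members and less of other genes give the same ratio.

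Fkbp5 in phagocytes was at 66.8 CPM in LFD_WT against 194.1 in LFD_shYap, and at 56.8 in HFD_WT against 130.0 in HFD_shYap. Both libraries labelled shYap were above both WT libraries, with ratios of 2.91 (2.81 to 3.01) and 2.29 (2.21 to 2.37). Zbtb16, a zinc-finger repressor best known from innate-like lymphocytes, was scarce in both WT libraries, at 2.32 CPM in LFD_WT and 3.03 in HFD_WT. It stood at 19.9 CPM in LFD_shYap and 10.1 in HFD_shYap, 8.57-fold (7.22 to 10.2) and 3.33-fold (2.87 to 3.88) the level of the WT library on the same diet. Tsc22d3, which encodes the anti-inflammatory protein GILZ, was at 82.3, 191.7, 103.8 and 168.6 CPM in LFD_WT, LFD_shYap, HFD_WT and HFD_shYap. Its ratios were 2.33 (2.25 to 2.41) and 1.62 (1.58 to 1.67), and the groups did not overlap. Klf9, a Krüppel-like factor, was at 29.7, 70.8, 21.5 and 42.7 CPM in the same order, again without overlap, with ratios of 2.38 (2.26 to 2.51) and 1.99 (1.88 to 2.12). The clock repressor Per1 differed by less, at 31.6, 44.9, 37.4 and 42.8 CPM, a ratio of 1.42 (1.34 to 1.502) on the low-fat and 1.15 (1.09 to 1.21) on the high-fat diet. Cebpd, which encodes an acute-phase transcription factor, was at 33.7, 45.1, 24.3 and 28.7 CPM. Here HFD_shYap lay below LFD_WT, so the groups overlapped, and the ratios were 1.34 (1.27 to 1.42) and 1.18 (1.10 to 1.26).

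The signalling genes among the members were less even in phagocytes. Pik3ip1, an inhibitor of phosphoinositide 3-kinase, was at 0.837 CPM in LFD_WT against 11.2 in LFD_shYap, and at 1.06 in HFD_WT against 1.38 in HFD_shYap. Only LFD_shYap stood apart, at 13.4-fold (10.1 to 18.0) the level of LFD_WT, while the high-fat ratio of 1.31 had an interval that spanned 1 (0.961 to 1.79). These low-fat ratios were smaller without clusters 8 and 13, each mostly of 1 library: the log2 ratio of Pik3ip1 was 3.74 with all clusters and 2.48 without them, and that of Zbtb16 3.099 and 2.51. Ddit4, an inhibitor of mTOR signalling, was at 17.3, 49.8, 28.6 and 23.7 CPM in LFD_WT, LFD_shYap, HFD_WT and HFD_shYap. It was the single member whose ratios lay on opposite sides of 1 in phagocytes, 2.88 (2.69 to 3.08) in the low-fat and 0.829 (0.776 to 0.885) in the high-fat pair. Errfi1, which restrains the epidermal growth factor receptor, was at 38.6, 43.5, 43.8 and 61.9 CPM, and Irs2 at 84.1, 91.1, 58.8 and 89.8 CPM. Their ratios were larger in the high-fat pair, 1.41 (1.35 to 1.48) for Errfi1 and 1.53 (1.47 to 1.59) for Irs2, than in the low-fat pair, 1.13 (1.07 to 1.19) and 1.08 (1.04 to 1.12), and these differences between diets were not tested.

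**Figure D1:**
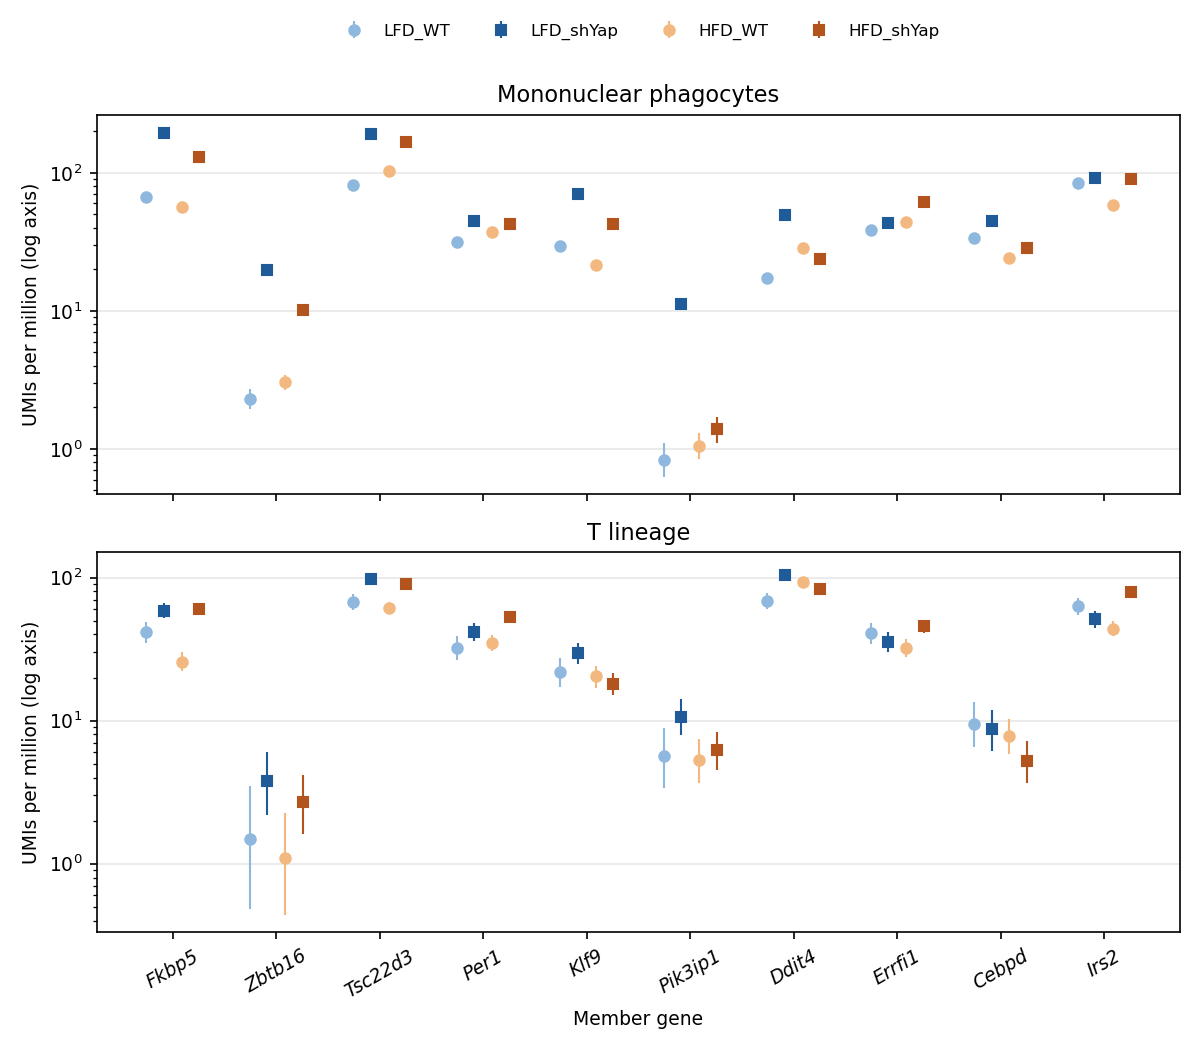
Level of each member in CPM (log axis) in mononuclear phagocytes (top) and the T lineage (bottom), with 1 point per library and bars for the 95% Poisson interval. In phagocytes the squares of the libraries labelled shYap sit above the circles of the WT libraries for Fkbp5, Zbtb16, Tsc22d3 and Klf9. They also do so for Per1, Irs2 and Pik3ip1, with overlapping bars for Pik3ip1 in the high-fat pair. In the T lineage Cebpd is lower in both squares than in the WT circle of the same diet.

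T cells, whose activation glucocorticoids damp, carried a smaller difference. Their summed members were at 352.8 CPM in LFD_WT against 441.0 in LFD_shYap, and at 325.7 in HFD_WT against 443.5 in HFD_shYap. The log2 ratio was 0.32 in the low-fat pair and the ratio 1.36 (1.288 to 1.44) in the high-fat pair, and the groups did not overlap. At least 1.5-fold higher in both pairs was 1 of 10 members, Zbtb16, with only 5 to 19 UMIs per library and intervals that reached below 1 in both pairs, and 0 of 10 were lower. Of all 10701 genes 0.972% were higher and 0.897% lower. Fkbp5 in the T lineage was at 41.6, 58.7, 25.8 and 59.9 CPM in LFD_WT, LFD_shYap, HFD_WT and HFD_shYap, with ratios of 1.41 (1.15 to 1.75) and 2.32 (1.93 to 2.79), although LFD_shYap and HFD_shYap were alike. Tsc22d3 was at 67.7, 97.5, 61.1 and 90.8 CPM, with close ratios of 1.44 (1.22 to 1.697) and 1.49 (1.31 to 1.69). Per1 was at 32.1, 41.8, 34.9 and 53.0 CPM, ratios of 1.304 (1.02 to 1.67) and 1.52 (1.281 to 1.798). These 3 members were higher in both pairs with intervals above 1. Cebpd went the other way at low counts, 9.50, 8.68, 7.83 and 5.24 CPM, with intervals that spanned 1 in both pairs.

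The remaining members in the T lineage differed by diet pair. Ddit4 was at 68.6, 103.7, 93.0 and 82.8 CPM in LFD_WT, LFD_shYap, HFD_WT and HFD_shYap, and Irs2 at 63.3, 51.0, 44.0 and 79.4 CPM. The ratios of Ddit4 were 1.51 (1.29 to 1.78) and 0.890 (0.793 to 0.9999), and those of Irs2 0.805 (0.665 to 0.975) and 1.805 (1.56 to 2.09). Klf9, so clear in phagocytes, had ratios of 1.35 (1.01 to 1.81) and 0.883 (0.686 to 1.14) in the T lineage. The 3 T cell clusters were not alike. The cluster led by Tnfrsf4, Icos and Ctla4, genes of activated and regulatory CD4 T cells, had summed ratios of 1.66 (1.48 to 1.85) and 1.42 (1.3 to 1.56), with Fkbp5 at 2.52 (1.86 to 3.45) and 2.99 (2.2 to 4.13). A CD8 cluster with Pdcd1 among its leading genes had 1.17 (1.04 to 1.31) and 1.44 (1.33 to 1.56). A deeper CD8 cluster led by Nrgn had ratios below 1 with intervals that spanned it, 0.942 (0.786 to 1.13) and 0.874 (0.749 to 1.02). The phagocyte marker Csf1r was at 134.1 CPM in the first of these clusters, against 34.9 and 28.3 in the CD8 clusters. Phagocyte RNA was not subtracted by cluster, and its part in the differences between these clusters was not tested.

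Neutrophils, short-lived granulocytes in which glucocorticoids are known to prolong survival, had summed members at 598.5 CPM in LFD_WT against 803.3 in LFD_shYap, and at 720.2 in HFD_WT against 1043 in HFD_shYap. The ratios were 1.34 (1.196 to 1.51) and 1.45 (1.34 to 1.56). Of 9 members with enough UMIs, 0 passed 1.5-fold in both pairs in either direction, where 1.99% of 7142 genes were higher and 8.72% lower. Tsc22d3 was at 130.4, 147.2, 122.5 and 265.0 CPM, so that HFD_shYap alone stood apart, with a ratio of 2.16 (1.84 to 2.55) against 1.13 (0.87 to 1.47) in the low-fat pair. Cebpd, abundant in this lineage, was at 179.0, 293.3, 164.1 and 220.1 CPM, with ratios of 1.64 (1.33 to 2.02) and 1.34 (1.14 to 1.57). These values turned on a small cluster of granule-rich cells led by Camp, Ngp and Ltf, which gave 32 of the 352 neutrophils of LFD_shYap and 4 in each other library. Those 32 cells held 350116 of the 992158 neutrophil UMIs of LFD_shYap, with Cebpd at 405.6 CPM. An alternative added after the data were seen left this cluster out. Cebpd was then at 170.0, 232.1, 162.6 and 218.0 CPM in LFD_WT, LFD_shYap, HFD_WT and HFD_shYap. Fkbp5 had ratios of 1.65 (1.08 to 2.54) and 1.58 (1.19 to 2.09), and Tsc22d3 of 1.52 (1.16 to 1.99) and 2.18 (1.85 to 2.57). Fkbp5 and Tsc22d3 made up the 2 of 9 members then at least 1.5-fold higher in both pairs, where 2.72% of genes were.

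Natural killer cells and B cells were fewer, and their intervals wider. Summed members in NK cells were at 373.4 CPM in LFD_WT against 471.3 in LFD_shYap, and at 363.2 in HFD_WT against 437.3 in HFD_shYap, with ratios of 1.26 (1.14 to 1.39) and 1.204 (0.998 to 1.46). Per1 and Klf9 made up the 2 of 8 members at least 1.5-fold higher in both pairs, where 2.41% of 7953 genes were higher and 3.51% lower, and 0 members were lower. Klf9 in NK cells was at 11.3, 28.2, 13.5 and 26.4 CPM, from only 7 to 41 UMIs, with an interval below 1 at its lower end in the high-fat pair (1.96, 0.772 to 5.59). Per1 was at 18.7, 37.0, 32.7 and 57.4 CPM, with ratios of 1.98 (1.33 to 2.92) and 1.76 (0.965 to 3.33). Fkbp5 in the low-fat pair of NK cells was the exception to its pattern, at 53.6 and 52.3 CPM, a ratio of 0.976 (0.726 to 1.299).

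In B cells the summed members were at 409.7, 444.5, 385.0 and 551.8 CPM in LFD_WT, LFD_shYap, HFD_WT and HFD_shYap. The low-fat ratio of 1.09 had an interval on both sides of 1 (0.867 to 1.35), and the high-fat ratio was 1.43 (1.15 to 1.797). Per1 was the 1 of 6 members past 1.5-fold in both pairs, at 26.8, 43.4, 30.5 and 55.2 CPM, and both of its intervals reached below 1. In these cells 1.15% of 4448 genes were higher and 4.07% lower in both libraries labelled shYap, and 0 members were lower. Tsc22d3 was lower in the low-fat pair (143.8 and 108.4 CPM, ratio 0.754, 0.480 to 1.15) and higher in the high-fat pair (102.5 and 180.1 CPM, ratio 1.76, 1.15 to 2.72).

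Dendritic cells are the professional antigen-presenting cells. In type 1 conventional dendritic cells, which cross-present antigen to CD8 T cells, summed members were at 272.6, 435.0, 264.5 and 343.1 CPM in LFD_WT, LFD_shYap, HFD_WT and HFD_shYap. The ratios were 1.596 (1.41 to 1.81) and 1.297 (1.17 to 1.44). Fkbp5, Klf9 and Ddit4 were the 3 of 8 members at least 1.5-fold higher in both pairs, beside 1.43% of 8223 genes higher and 1.24% lower, with 0 members lower. Klf9 rested on only 8 to 29 UMIs per library, and both of its intervals reached below 1 (0.859 to 2.99 and 0.939 to 5.76). Fkbp5 there was at 49.6, 118.9, 37.6 and 89.1 CPM, with nearly equal ratios of 2.396 (1.82 to 3.19) and 2.37 (1.85 to 3.06). Ddit4 was at 6.62, 24.1, 5.62 and 12.4 CPM, ratios of 3.63 (1.76 to 8.23) and 2.2 (1.13 to 4.54), so that in these cells it did not show the opposite sides seen in phagocytes. Cebpd did: it was at 11.3, 28.2, 12.96 and 6.18 CPM, ratios of 2.505 (1.39 to 4.703) and 0.477 (0.247 to 0.892).

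Type 2 conventional dendritic cells, which present antigen mainly to CD4 T cells, had summed members at 326.3, 485.4, 252.0 and 407.2 CPM in the same order. Their ratios were 1.49 (1.34 to 1.66) and 1.62 (1.48 to 1.77) beside 1.97 and 1.58 in the phagocytes. Fkbp5, Tsc22d3 and Klf9 were the 3 of 8 members past 1.5-fold in both pairs, beside 2.38% of 8638 genes higher and 1.94% lower, with 0 members lower. Fkbp5 was at 37.0, 83.9, 19.3 and 67.7 CPM, ratios of 2.27 (1.69 to 3.07) and 3.502 (2.63 to 4.72). Tsc22d3 was at 40.1, 97.0, 44.8 and 90.2 CPM, ratios of 2.42 (1.83 to 3.23) and 2.01 (1.64 to 2.48). For both genes the 2 libraries labelled shYap lay well above the WT libraries. Mature dendritic cells, the migratory Ccr7 state, numbered only 21 in LFD_shYap and 63 to 76 in the other libraries. Their summed members were at 184.2, 296.1, 110.9 and 176.4 CPM, ratios of 1.61 (1.07 to 2.39) and 1.59 (1.17 to 2.18). Tsc22d3 was the 1 of 3 members tested past 1.5-fold, beside 2.49% of 4373 genes higher and 1.58% lower, with 0 members lower. Its low-fat interval reached below 1 (0.686 to 3.67, from 17 and 11 UMIs).

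In the Ptprc-low cluster the summed members were at 455.5, 872.3, 650.0 and 816.5 CPM in LFD_WT, LFD_shYap, HFD_WT and HFD_shYap, ratios of 1.92 (1.87 to 1.97) and 1.256 (1.21 to 1.3). Here Cebpd had the largest low-fat difference in CPM, at 124.5 and 332.4 CPM (2.67-fold, 2.54 to 2.8). It was at 283.7 and 300.2 CPM in the high-fat pair. The low-fat ratios of the other members were above 1 too, from 1.14 (1.05 to 1.24) for Irs2 to 2.69 (2.45 to 2.97) for Tsc22d3. Zbtb16 was at 3.84, from only 3 and 11 UMIs. Per1 and Pik3ip1 were the 2 of 9 members past 1.5-fold in both pairs, beside 1.22% of 12107 genes higher and 1.04% lower, and with TMM factors 0 members were. Fkbp5 was at 62.9, 88.01, 55.6 and 90.5 CPM, ratios of 1.4 (1.298 to 1.51) and 1.63 (1.46 to 1.81). In the low-depth cluster Fkbp5 and Klf9 were the 2 of 9 members past it, beside 0.695% of 10076 genes higher and 1.27% lower, and the summed ratios were 1.65 (1.55 to 1.75) and 1.34 (1.24 to 1.44). No member was 1.5-fold lower in both pairs in either cluster.

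**Figure D2:**
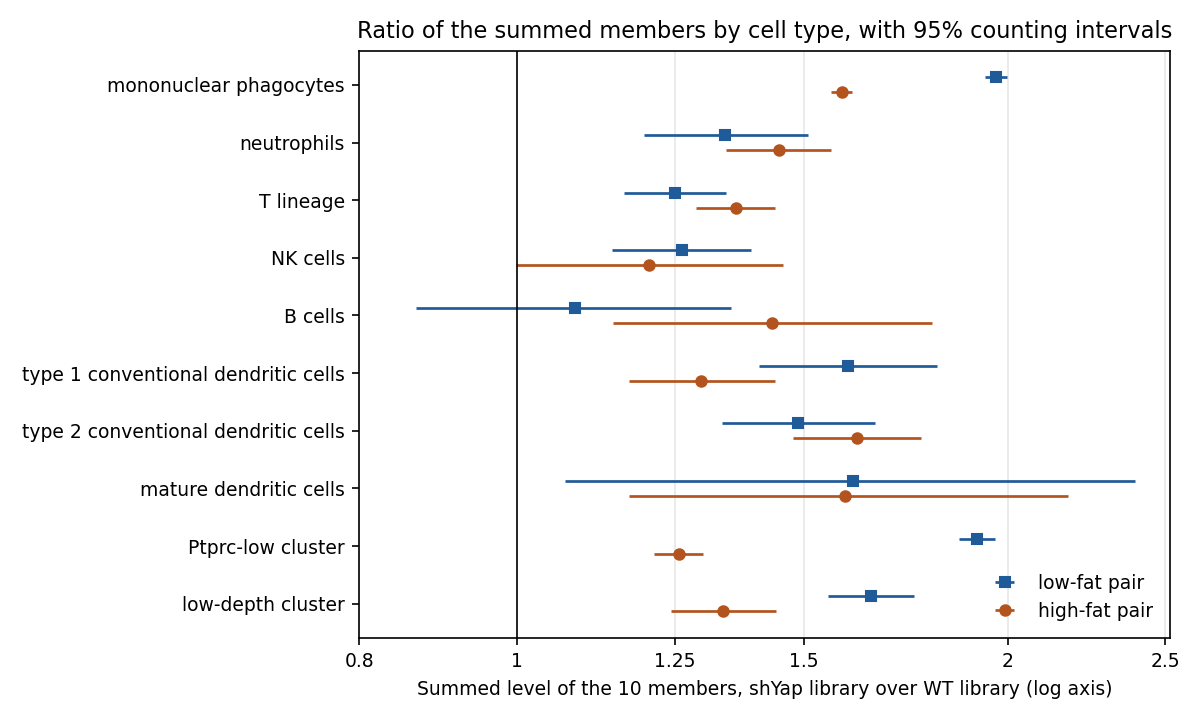
Ratio of the summed level of the 10 members, library labelled shYap over WT library on the same diet (log axis), for 8 cell types and 2 unnamed clusters, with bars for the 95% counting interval. All 20 points lie to the right of 1, from 1.09 in the B cells of the low-fat pair to 1.97 in the phagocytes of the low-fat pair.

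By these counts, summed ratios above 1 were not limited to the phagocytes. Over the 8 named cell types, 16 of 16 summed ratios were above 1, and 14 of their intervals lay above 1. The members were chosen for standing higher in these same libraries, which favours such ratios beforehand, so their number is a description. With phagocyte RNA subtracted, as given below, the low-fat ratios of B cells and mature dendritic cells were 0.885 and 0.646. The ratio of the phagocytes was larger than that of each of the other 7 types in the low-fat pair, with an interval above 0 for 6 of the 7 differences in log2 ratio. Against the unnamed Ptprc-low cluster the difference was 0.039 (-0.005 to 0.083) in the low-fat and 0.333 (0.279 to 0.386) in the high-fat pair. Without clusters 8 and 13, as given below, the low-fat log2 ratio of the phagocytes was smaller. That of type 1 dendritic cells was 0.674 and that of mature ones 0.685. Against the T lineage the phagocyte log2 ratio was higher by 0.66 (0.55 to 0.76) in the low-fat pair and by 0.22 (0.13 to 0.30) in the high-fat pair. In the high-fat pair 5 of 7 differences were above 0, 4 of them with their interval, and the phagocytes and type 2 dendritic cells differed by -0.03 (-0.16 to 0.10). Cell types of 1 library share its preparation and are not replicates. By member, Fkbp5 was higher in 7 of 8 cell types in the low-fat and 8 of 8 in the high-fat pair. Its intervals lay above 1 in 4 and 5 of them. Tsc22d3 was likewise higher in 7 of 8 and 8 of 8, with 5 and 6 intervals above 1. Klf9 was higher in 8 of 8 and 6 of 8, with 4 and 2 intervals above 1. Errfi1 was higher in 2 of 7 types with enough counts in the low-fat and 7 of 8 in the high-fat pair. Its intervals lay above 1 in 1 and 2 of them. Zbtb16 had at least 3 UMIs per library in 3 cell types and was higher in all 3 in both pairs. Only its phagocyte intervals lay above 1, and neutrophils held just 5 to 12 UMIs per library.

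**Figure D3:**
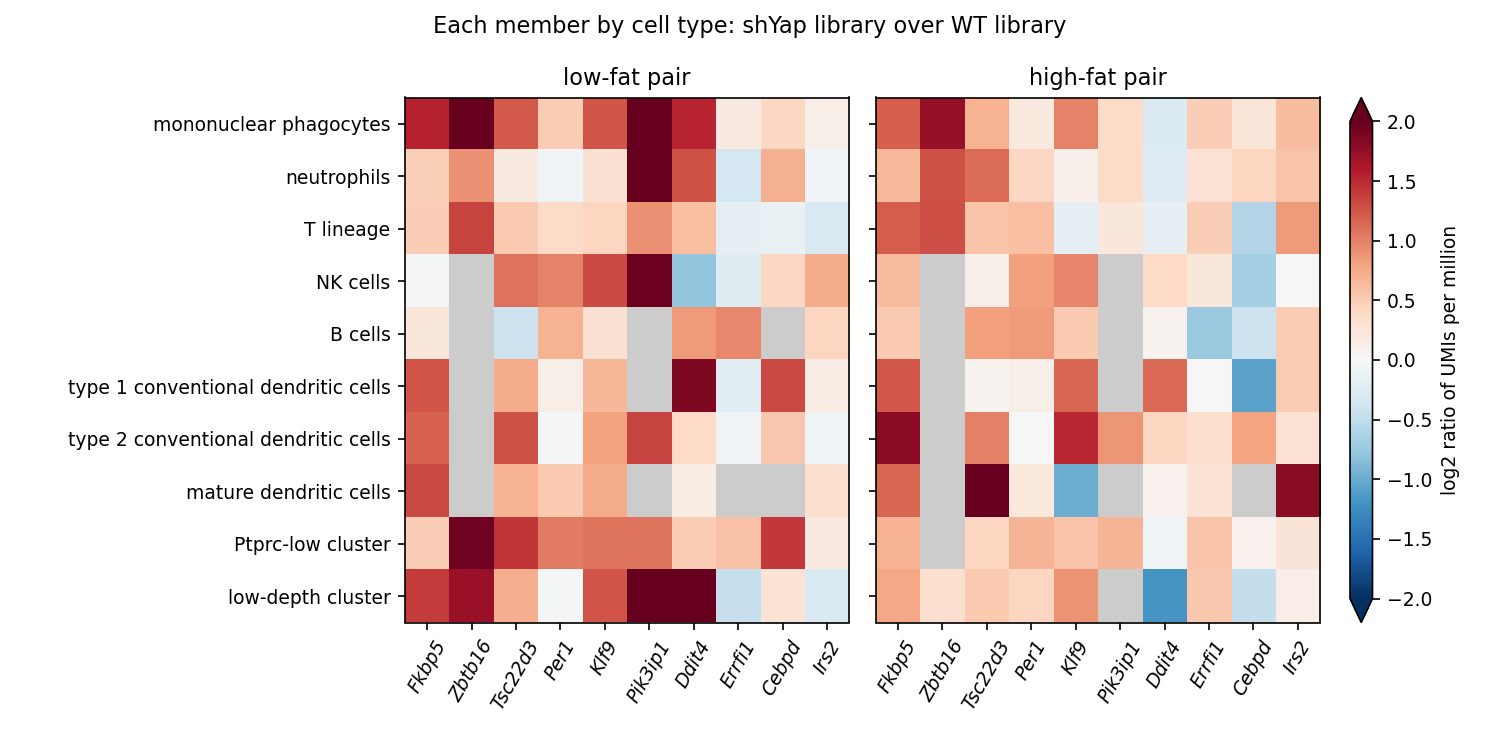
The log2 ratio of CPM, library labelled shYap over WT library, for each member (columns) in each cell type or cluster (rows), low-fat pair at left and high-fat pair at right; grey marks pairs with fewer than 3 counts in a library. The columns of Fkbp5 and Tsc22d3 are red in nearly all rows, and Ddit4 changes from red to blue in phagocytes, from a ratio of 2.88 to 0.829.

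RNA of phagocytes was present in the other cell types. In the T lineage C1qa, C1qb and C1qc, complement genes made by macrophages, reached 14.1% of what the phagocytes of LFD_WT held, 9.7% for LFD_shYap, 9.83% for HFD_WT and 9.72% for HFD_shYap. In neutrophils the share was higher in the WT libraries (33.4% and 31.8%) than in those labelled shYap (15.3% and 16.3%), and in B cells it was 24.1% to 38.8%. When the members were reduced by that share of the phagocyte level, in an alternative added after the data were seen, the summed ratio of the T lineage was 1.23 and 1.34. It was 1.46 and 1.58 in neutrophils, 1.27 and 1.24 in NK cells, 1.57 and 1.33 in type 1 and 1.34 and 1.59 in type 2 dendritic cells. B cells were at 0.885 and 1.64, and mature dendritic cells, in which 26.2% of the C1q level was found in LFD_shYap, at 0.646 and 1.52. So the low-fat ratios of these last 2 types lay on the other side of 1. Fkbp5 in the T lineage was at 1.24 and 2.33 after this step, and Tsc22d3 at 1.41 and 1.46.

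Within the phagocytes the difference did not rest on a single population. Among clusters with at least 50 cells in both libraries of a pair, the summed members were higher in the library labelled shYap in 8 of 8 clusters of the low-fat pair (1.47 to 1.91) and 9 of 9 of the high-fat pair (1.2 to 1.6). Fkbp5, Zbtb16, Tsc22d3 and Klf9 were each higher in all of them, with Fkbp5 at 2.19 to 3.56 in the low-fat and 1.21 to 2.71 in the high-fat pair. Ddit4 was higher in 8 of 8 clusters of the low-fat pair and in 1 of 9 of the high-fat pair. Irs2 showed the converse, 1 of 8 and 9 of 9. The cluster led by Chil3 and Ly6c2, for example, had summed members at 398.2 and 585.5 CPM in the low-fat pair and 443.1 and 531.3 CPM in the high-fat pair. The highest level was in cluster 8, with 1959 of its 2171 cells from LFD_shYap, at 1074 CPM in that library. Zbtb16 and Pik3ip1 were among the 10 genes that set this cluster off, so its level describes how it was formed. In cluster 13, 738 of 740 cells came from HFD_shYap and Xist led its genes. Without these 2 clusters, left out after the data were seen, the log2 ratio of the summed members was 0.698 against 0.98 with all clusters in the low-fat pair and 0.61 against 0.66 in the high-fat pair. The same 4 members were then at least 1.5-fold higher in both pairs, where 0.685% of genes were.

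**Figure D4:**
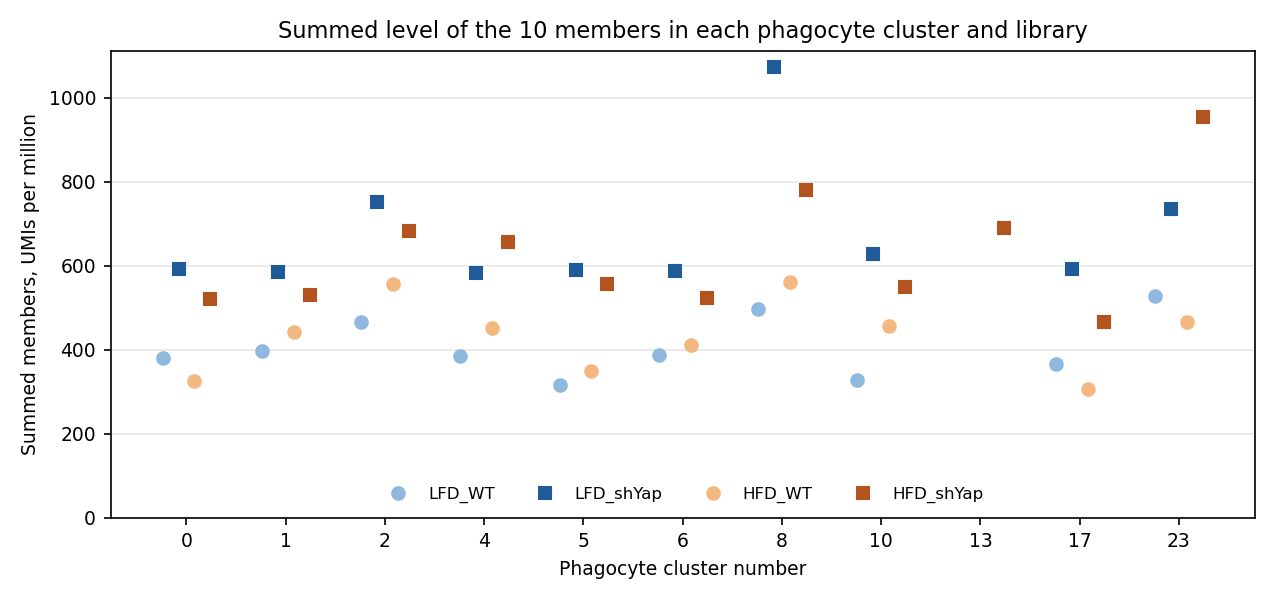
Summed level of the 10 members in CPM in each phagocyte cluster, with 1 point per library and no error bar. In each cluster with at least 50 cells per library the squares of the libraries labelled shYap lie above the circles of the WT library on the same diet, and cluster 8 in LFD_shYap is highest at 1074.

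The 2 kinds of cells in HFD_shYap gave different sizes of the same direction. Against HFD_WT, its phagocytes with Xist UMIs alone (1386 cells) had a summed ratio of 1.76 (1.72 to 1.8), and those with Y-linked UMIs alone (2019 cells) one of 1.49 (1.46 to 1.52). Fkbp5 was at 144.0 and 120.5 CPM in these cells, 2.54 and 2.12 times HFD_WT. Zbtb16 was at 16.9 and 6.57 CPM, 5.59 and 2.17 times. With the Y-linked cells alone, 2 of 10 members (Fkbp5, Zbtb16) were at least 1.5-fold higher in both pairs, where 0.974% of all genes were. Tsc22d3 and Klf9 came to 1.46 each in the high-fat pair. In the T lineage the summed ratios of the same 2 kinds of cells were 1.41 (1.31 to 1.53) and 1.31 (1.22 to 1.41).

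Counted per cell, the members were found in most phagocytes. Median depth was greater in the libraries labelled shYap, at 9754 and 11907 UMIs per phagocyte against 7877 in LFD_WT and 10450 in HFD_WT, so cells were thinned to 4000 UMIs, leaving out 1122, 448, 495 and 339 shallower cells of LFD_WT, LFD_shYap, HFD_WT and HFD_shYap. Thinned phagocytes held a mean of 1.55 and 3.16 member UMIs in LFD_WT and LFD_shYap and of 1.52 and 2.5 in HFD_WT and HFD_shYap. The medians were 1, 3, 1 and 2 (unthinned 3, 7, 3 and 7), and 25.2%, 8.85%, 29.1% and 13.3% of cells had none. Thinned T cells had means of 1.37, 1.83, 1.26 and 1.83 and 30.4%, 21.6%, 31.7% and 19.5% without a member UMI, and at levels this near to 1 UMI no change is read from them. Thinned type 2 dendritic cells had means of 1.39, 2.0, 0.994 and 1.65. Zbtb16 was nearly absent from the Ptprc-low cluster, with 2 to 11 UMIs per library, or 0.113 to 0.604 CPM.

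**Figure D5:**
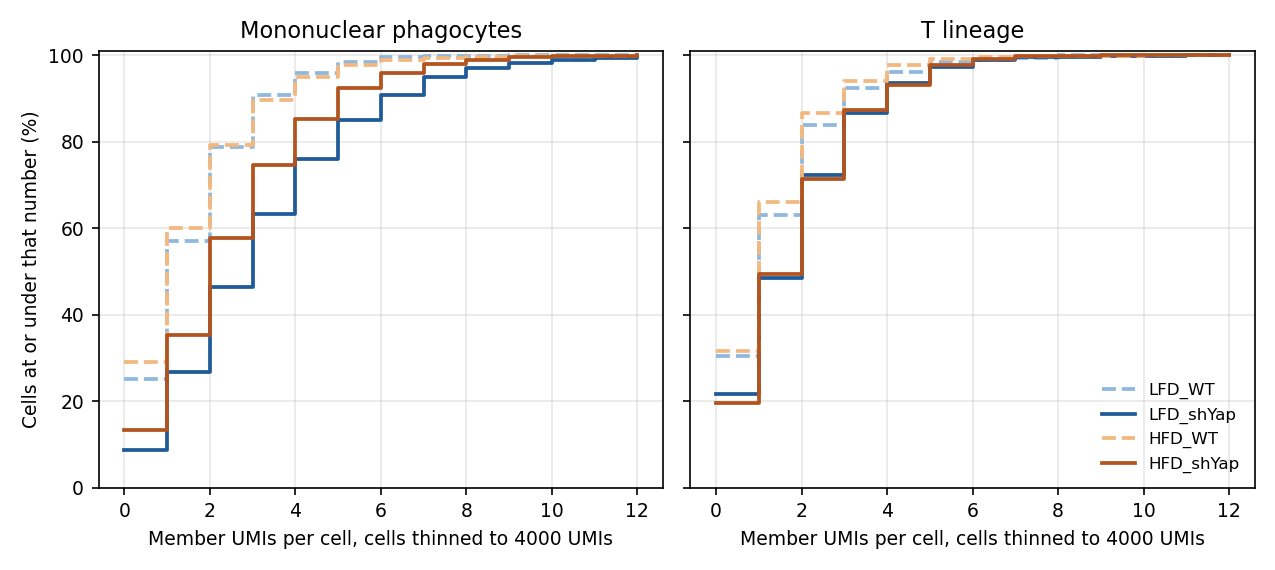
Percent of cells at or under each number of member UMIs after thinning every cell to 4000 UMIs, for mononuclear phagocytes (left) and the T lineage (right), solid for libraries labelled shYap and dashed for WT. In phagocytes the solid curves lie below the dashed ones, starting at 8.85% and 13.3% of cells without a member UMI against 25.2% and 29.1%.

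Other genes of the pathway were read from lists, set beside the 1.11% of all genes in phagocytes that were at least 1.5-fold higher in both pairs and the 0.916% that were lower. In phagocytes the receptor gene Nr3c1 was at 71.3, 64.8, 63.1 and 73.2 CPM in LFD_WT, LFD_shYap, HFD_WT and HFD_shYap, so the groups overlapped. Of 12 measured genes of the receptor and steroid handling, which include the chaperones Hsp90ab1 and Hsp90aa1, 1 was at least 1.5-fold higher in both pairs (Ncoa1, a receptor co-activator, which was also among the genes that set cluster 8 off) and 0 lower. Of 20 other genes that glucocorticoids induce, 4 were higher (the metallothionein Mt2, Hif3a, the efferocytosis receptor Mertk and the kinase gene Map3k6) and 0 lower. The most abundant of that list were not among them: Mt1 was at 1117, 1620, 1105 and 1151 CPM, and the phosphatase gene Dusp1 at 383.8, 312.2, 215.4 and 361.4 CPM. Among 13 inflammatory genes that glucocorticoids are known to repress, 0 were higher and 2 lower, the cytokine gene Il1b (569.0, 336.5, 817.9 and 514.7 CPM) and Cxcl10 (164.3, 92.8, 153.3 and 86.9 CPM). Il1b and Cxcl10 were lower in each library labelled shYap than in the WT library on its diet. Ccl2 of the same list was at 1384 and 585.1 CPM in the low-fat pair and at 414.1 and 433.0 CPM in the high-fat pair, and Cxcl2 at 1500 and 1029, then 749.4 and 741.9 CPM. Genes named here outside the 4 with most UMIs of each list were chosen after their values were seen.

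Lists for other inputs to the members were read in the same way, and the part of these inputs was not tested. Of 14 clock genes other than Per1, 0 were 1.5-fold apart in both pairs in phagocytes, Clock being at 30.5, 35, 28.1 and 36.9 CPM. Of 12 FOXO targets 1 was higher, the stress gene Trp53inp1 (6.07, 25.04, 6.01 and 11.3 CPM), and 0 lower. Of 12 hypoxia genes 0 were apart, and Vegfa was at 107.2 and 88.8 CPM in the low-fat pair and 215.0 and 208.8 CPM in the high-fat pair. Of 12 immediate early genes, which tissue dissociation can raise, 0 were apart, with Fos at 854.4, 751.9, 681.0 and 774.3 CPM. In the T lineage, where 0.972% of all genes were higher and 0.897% lower, 0 genes of these 4 lists were apart. There 0 of 17 other induced genes were higher and 1 lower, and of 9 repressed genes 0 were higher and 1 lower. These 2 lower genes, Cd163 and Ccl2, are known from macrophages. The C1q share of the T lineage was 14.1% and 9.7% in the low-fat and 9.83% and 9.72% in the high-fat pair. The part of phagocyte RNA in these 2 genes was not tested.

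Genes with the pattern most like the members were ranked over 32 sums of UMIs (8 cell types in 4 libraries), by the correlation of log2(CPM + 1), centred within each cell type, with the mean of the members. The sums of a library share its depth and preparation, so r is a description. Highest among genes that are no members were Serinc3, which encodes a membrane protein of the serine incorporator family (r = 0.814), Trp53inp1 (0.811) and the translation inhibitor Pdcd4 (0.795), then mt-Co1 (0.730), Man2a1 (0.728) and Pdxk (0.718). Serinc3 in phagocytes was at 695.9, 1001, 604.7 and 934.2 CPM in LFD_WT, LFD_shYap, HFD_WT and HFD_shYap, and in type 2 dendritic cells at 271.3, 423.2, 213.1 and 358.9 CPM. Each member was also set against the mean of the other 9. Fkbp5 (r = 0.827), Tsc22d3 (0.763) and Klf9 (0.707) were closest to the rest, Zbtb16 (0.521) and Irs2 (0.547) less so, and Errfi1 (0.087) apart.

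Diet was not part of how the members were chosen and was tested on the UMI sums of the 4 libraries with the quasi-likelihood test of edgeR, with tumour line as a covariate. In phagocytes 0 of 10 members passed an adjusted p of 0.05, where 0.388% of 14174 genes did. Unadjusted, 3 members and 896 of all genes had an edgeR p under 0.05. The lowest adjusted p by edgeR was 0.305, for Klf9 (high-fat over low-fat log2 -0.65, SE 0.17) and for Cebpd (log2 -0.61, SE 0.16). Between the WT libraries and between those labelled shYap both genes were lower on the high-fat diet. In the T lineage 0 of 10 members passed, where 0.877% of 10835 genes did, with a lowest edgeR adjusted p of 0.619 for Klf9. Unadjusted, 1 member and 767 of all genes were under 0.05 there by edgeR. In neutrophils 0 of 9 members passed, and of 6655 genes 0.0% did, with 573 genes at an unadjusted p under 0.05 by edgeR and 17 called by DESeq2. There Errfi1 had the lowest adjusted p by edgeR, 0.525 (log2 0.89, SE 0.29), and 3 members were under 0.05 unadjusted. DESeq2 called 0 members in each of these 3 cell types, and after its own filter it gave an adjusted p for only 2 members in the T lineage and 8 in neutrophils. The test has 1 residual degree of freedom and measures only the spread between these libraries, and in phagocytes it turned on single libraries and the filter. Fits with a library left out held diet alone in the model, since 3 libraries leave no residual degree of freedom otherwise. The lone library of a diet was assumed to vary like the others. The median log2 of the members, high-fat over low-fat, was then -0.93 without LFD_WT and 0.45 without LFD_shYap. In both of these fits the low-fat diet is a single library, LFD_shYap or LFD_WT, so diet and the shYap label cannot be told apart there and no direction is read.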

How the data were processed

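The 4 libraries hold UMI counts per gene and cell barcode (mouse, 10x 3′ v3.1 per the labels' protocols), and the matrices were deposited by the authors as raw counts. Per the file headers the counting tool was cellranger 6.0.0; the tools listed in the submitters' processing notes are STAR 2.5.1 and Cell Ranger 4.0.0, with the build mm10. Libraries held 9582 to 14779 barcodes and 106268471 to 144936859 UMIs. Cells with at least 200 genes and under 15% mitochondrial UMIs were kept. Doublets were ranked by score and removed at a rate that grew with the number of barcodes (605 to 1486 cells per library), because the automatic threshold marked 0 cells in 3 libraries. Cells were clustered with scanpy 1.11.5 (2000 variable genes, of which Errfi1 and Cebpd are members, 30 components, 15 neighbours, Leiden resolution 1) and named from marker lists; 7 cells rich in mast cell proteases were set apart. Names rebuilt in this way may differ from those of the study.

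UMIs were summed per library and cell type, and CPM is a member's UMIs relative to all UMIs of that sum. CPM has an exact Poisson interval and a ratio an exact conditional binomial interval, both at 95%; a count under 3 is raised to 3 as the floor. Genes with at least 40 UMIs over the 4 libraries were counted as 1.5-fold apart when both pairs moved the same way. The contrast by tumour line was not tested, because the members were chosen on it. Diet was tested with edgeR 4.0.16 (R 4.3.3, TMM, filterByExpr, quasi-likelihood, Benjamini-Hochberg over all genes) on models of diet and line, with DESeq2 1.42.0 as an alternative. Scripts were tested on simulated data. The named genes are all 10 members, by rule at most the 4 genes with most UMIs of each of 7 lists, list genes past the fold that were added after their values were seen, and the 6 genes most like the members with a mean of at least 20 CPM. Members and lists were chosen with earlier results of these data known. Replicate numbers only name the libraries and pair nothing. Alternatives changed the doublet and mitochondrial filters, scaling, clustering resolution, cells of HFD_shYap by sex-linked UMIs, fold, minimum UMIs, diet label, summary of the members, model and tool. Under them, single members outside phagocytes and the T lineage were followed only if past 1.5-fold in both pairs.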

Additional observations from a re-analysis of the deposited data

Results flagged for a closer look

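In 4 cases among the 8 named cell types the counting interval of a member lay above 1 in the pair of libraries on one diet and below 1 in the pair on the other, and in none of them was the difference between diets tested. Ddit4 in mononuclear phagocytes had a ratio, library labelled shYap over WT, of 2.88 in the low-fat and 0.829 in the high-fat pair. Ddit4 in the T lineage had 1.51 and 0.89. Irs2 in the T lineage went the other way, with 0.805 and 1.8. Cebpd in type 1 conventional dendritic cells had 2.5 and 0.477, from 17 to 41 UMIs per library. The unnamed low-depth cluster showed the same for Ddit4, at 4.91 and 0.442, and for Errfi1, at 0.73 and 1.446, also without a test of the difference.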

How the results depend on the processing

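No paired analysis was possible because replicate numbers here only name the single library of each combination; libraries were set side by side by diet, and the edgeR model held both diet and line. All ratios here compare libraries labelled shYap and WT. Of 190 summed log2 ratios under alternatives 188 kept their sign, 48 moved past their interval and 1 reversed past it. Of 394 for single members it was 386, 63 and 1. Some members entered only for being past 1.5-fold, which favours a kept sign. Depth limits NK, B and mature dendritic cells most. The cause of each shift below was not tested.

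In phagocytes the summed log2 ratio of the low-fat pair (0.977) was 1.065 with TMM factors, 1.24 as the median of the members, 0.903 without the member with most UMIs, 0.701 with clusters weighted equally, 1.007 with diet from the treatment field, and 0.698 without clusters 8 and 13, an alternative chosen after seeing the data. That of the high-fat pair (0.662) was 0.815 with Xist cells alone and 0.575 with Y-linked cells alone, 0.528 with TMM, 0.55 as the median and 0.46 with clusters weighted equally. It was 0.614 without clusters 8 and 13 and 0.617 with only clusters of 20 cells in every library, both chosen after seeing the data.

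In neutrophils the low-fat value (0.425) was 0.715 without doublet removal, 0.707 with TMM, 0.158 with the treatment field and 0.657 with only clusters of 20 cells in every library. The high-fat value (0.534) was 0.374 with Xist cells, 0.303 with Y-linked cells, 0.41 as the median and 0.657 with phagocyte RNA subtracted (chosen after seeing the data). In the T lineage the low-fat value (0.322) was 0.628 without doublet removal, 0.46 as the median and 0.437 with the treatment field. The high-fat value (0.446) was 0.54 as the median and 0.633 without the top member. NK cells on the low-fat diet (0.336) came to 0.58 as the median and 0.64 without the top member. B cells on the high-fat diet (0.519) came to 0.032 with Y-linked cells. Type 1 dendritic cells on the high-fat diet (0.376) came to 0.542 at Leiden resolution 0.5, which merged the dendritic cells, so type 2 cells have no value there. Type 2 cells came to 0.946 on the low-fat diet (0.573) with the treatment field and to 1.0 on the high-fat diet (0.692) with Xist cells. Mature dendritic cells on the low-fat diet (0.685) came to 1.417 with the treatment field and to -0.629, a reversal, with phagocyte RNA subtracted; on the high-fat diet (0.669) the median was 0.22.

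Members at least 1.5-fold higher in both pairs numbered 4 in phagocytes, beside 1.11% of all genes. Brackets give that share under each alternative. The phagocyte count became 2 with Y-linked cells (0.974%) or at a fold of 2 (0.213%), and 3 with TMM factors (0.93%), without Tsc22d3. It became 5 with Xist cells (1.4%) or at a lower fold (3.88%). In the Ptprc-low cluster 2 became 0 with TMM factors or at a fold of 2, 4 with Xist or with Y-linked cells and 6 at a lower fold. In the low-depth cluster 2 became 0 at a fold of 2 (0.0397%) and 1 with Y-linked cells (0.826%). It became 4 with Xist cells (2.33%), at Leiden resolution 0.5 (0.844%) or at the lower fold (4.32%). With no minimum of UMIs both clusters had 3 (2.61%, then 0.911%). The count of 0 in neutrophils became 5 without doublet removal (2.15%), 2 with only clusters of 20 cells in every library (2.72%) and 1 with TMM (3.54%). It became 3 at the lower fold (6.23%) and 1 with no minimum (1.47%). The count of 1 in the T lineage became 0 with Xist (1.01%) or Y-linked cells alone (0.929%), 4 at the lowered fold (4.73%) and 0 at 200 UMIs (0.202%). Without doublet removal the 1 was Fkbp5 in place of Zbtb16 (0.874%). The count of 2 in NK cells became 0 at a fold of 2 (0.277%) and 0 at 200 UMIs (0.921%). With Xist cells 1 member, Ddit4, was lower where 0 had been, beside 1.43% of all genes lower. The count of 1 in B cells became 2 at the lowered fold (4.29%). It became 0 without doublet removal (1.19%), with Xist cells (1.35%), at a fold of 2 (0.0674%) and at 200 UMIs (0.525%). The count of 3 in type 1 dendritic cells became 1 at 200 UMIs (0.297%). That of 3 in type 2 cells became 5 at the lowered fold (8.68%) and 5 with no minimum (2.4%). The count of 1 in mature dendritic cells became 0 at a fold of 2 (0.48%), 2 with no minimum (6.65%) and 0 at 200 UMIs (0.524%).

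The phagocyte minus T lineage difference (0.655 on the low-fat diet) was 0.356 without doublet removal and 0.377 without clusters 8 and 13. On the high-fat diet (0.216) it was 0.314 with Xist cells. Per1 in B cells on the high-fat diet (log2 0.857) reversed to -0.364 with Xist cells. Members called for diet in phagocytes, 0 by edgeR with 3 at an unadjusted p under 0.05 and 0 by DESeq2, were 3 with no filter on low counts. When each library was left out, the median log2 of the members for diet ran from -0.93 to 0.45. Genes called for diet, 55 in phagocytes, were 0 with the treatment field, 163 by DESeq2, 342 with no filter, 100 with Xist cells and 11 to 354 with a library left out. In the T lineage 95 became 51, 13, 145, 188 and 40 to 119 in the same order, and 11 with diet alone in the model. In neutrophils 0 became 17 by DESeq2, 144 with no filter, 31 with Xist cells, 11 to 135 with a library left out and 47 without doublet removal.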
